A study of Homo sapiens with 12 samples.

Results

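The 12 arrays of this series differ along 2 labels, the small interfering RNA (siRNA) that the cells received and a replicate number, and the comparison described here is along the second: the 4 arrays numbered replicate 1, 1 in each siRNA group, against the 8 arrays numbered 2 or 3. All RNA came from HEK293T cells, an established line derived from human embryonic kidney and expressing SV40 large T antigen. Each of 4 groups held 3 arrays: a control group with non-targeting siRNA and 3 groups with an siRNA against MED26, named s18074, s18075 and s18076. MED26 belongs to Mediator, which links transcription factors to RNA polymerase II. Every group received 25 nM siRNA, RNA was taken after 48 h, and 300 ng of total RNA entered the labelling. The control arrays numbered 1, 2 and 3 carry the labels non-targeting siRNA 2, 3 and 4, although the treatment protocol names only number 2, so in that group the siRNA number and the replicate number cannot be told apart. The labels allow 6-well plates or 10 cm dishes without saying which array came from which. They number the replicates but do not say that these were separate cultures or batches, and p-values here cover only the variation among arrays, which may be technical.

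The labelling kit used here makes complementary RNA (cRNA) with a primer on the poly(A) tail, so copying starts at the 3′ end of a messenger RNA (mRNA) and works toward the 5′ end. Arrays of this design carry separate probe sets at the 5′ end, the middle and the 3′ end of a few abundant transcripts, and the ratio of 3′ to 5′ signal is used as a measure of how far the labelled copies reach. Most other probe sets sit near the 3′ end of their transcript. Further control probes read bacterial transcripts: dap, lys, phe and thr from Bacillus, which are made with a poly(A) tail and meant to be added before labelling, and bioB, bioC, bioD and cre, which are meant to be added already labelled, at hybridization. The labels do not say how either was added here.

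The beta-actin mRNA separated the replicate 1 arrays by the wider margin of the 2 ratios tested. The log2 ratio of 3′ to 5′ signal of ACTB was 0.42 on the control array, 0.62 with s18074, 0.51 with s18075 and 0.58 with s18076 in replicate 1. The 8 other arrays lay between 1.89 and 2.69, with a median of 2.11. On a linear scale the ratio was 1.34 to 1.54 in replicate 1 and 3.71 to 6.45 elsewhere. No replicate 1 array overlapped the others. The means were 0.54 ± 0.09 (SD, n = 4) and 2.22 ± 0.29 (SD, n = 8), and the difference was −1.69 (exact two-sided permutation test within siRNA groups, p = 0.0123, also after adjustment over the 2 ratios tested, which is the smallest value the 81 arrangements allow). The glyceraldehyde-3-phosphate dehydrogenase mRNA, GAPDH, separated the same arrays over a much smaller range. Its log2 ratio was 0.11, 0.06, 0.03 and 0.08 in replicate 1, in the same order of groups, and 0.19 to 0.34 (median 0.24) on the others. That difference was −0.18 (exact permutation p = 0.0123, the smallest possible).

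The separation came from the 5′ end of the actin transcript. The ACTB 5′ probe set read 13.88 to 14.02 (log2 intensity) in replicate 1 and averaged 12.17 ± 0.31 (SD, n = 8) elsewhere, a difference of 1.76. The middle probe set differed by 0.64 and the 3′ probe set by 0.07. For GAPDH the corresponding differences were 0.19, 0.14 and 0.01. The 5′ probe set of 18S ribosomal RNA was also higher, at 12.16 to 12.38 against a mean of 10.70 ± 0.20 (SD, n = 8), while its 3′ probe set differed by 0.06. These single probe sets were not tested.

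The bacterial transcripts with a poly(A) tail followed the same order. The log2 ratio of dap was 2.48 to 3.07 in replicate 1 and 4.51 to 5.21 elsewhere, and that of thr was 3.24 to 3.73 against 4.08 to 4.74. Neither set of arrays overlapped. The ratio of phe differed by −0.49 and that of lys by −0.15, both with some overlap of arrays. All 24 probe sets of these 4 transcripts had a higher mean in replicate 1, by a median of 0.85 for the 8 at the 5′ end, 0.78 for the 8 in the middle and 0.45 for the 8 at the 3′ end. The 18 probe sets of bioB, bioC, bioD and cre had a lower mean instead, by 0.12 to 0.40, and their 3′ to 5′ ratios differed by −0.06 to 0.10. The part of these differences in the gene results below was not tested.

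**Figure D1:**
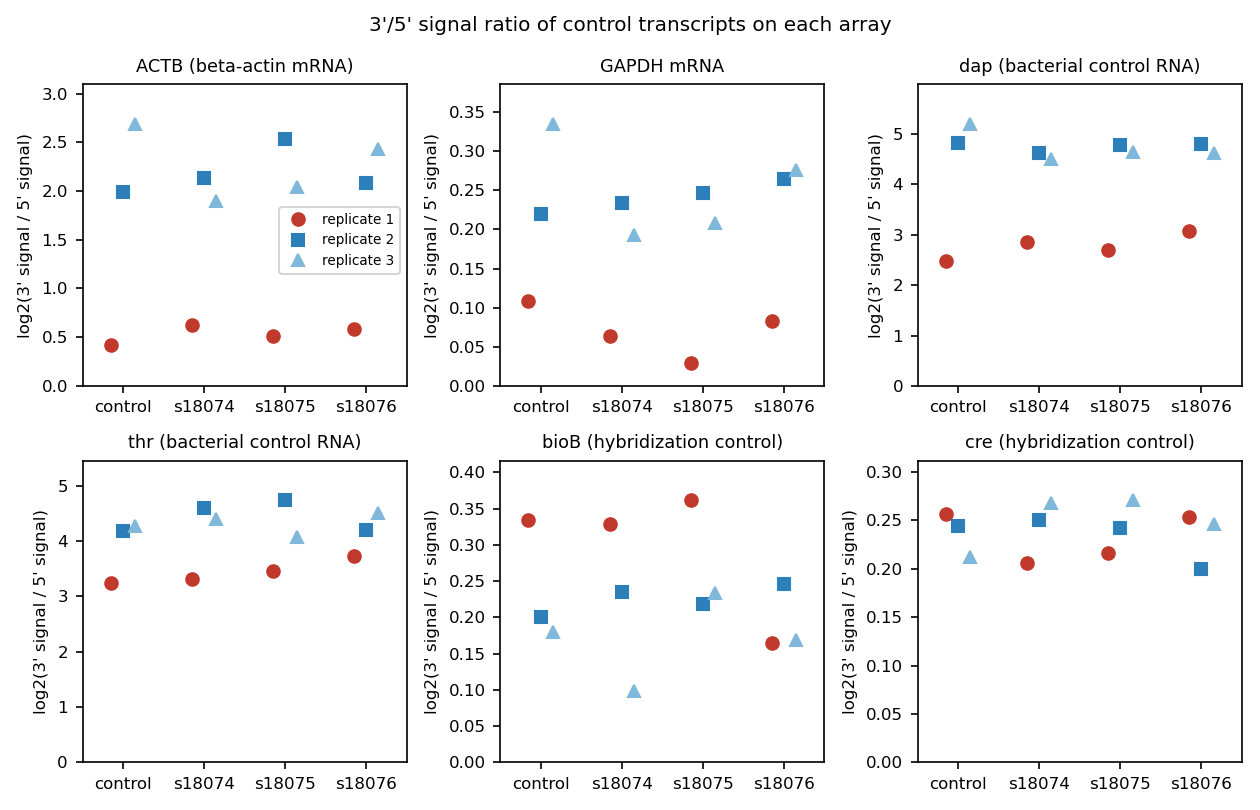
The log2 ratio of 3′ to 5′ signal on each of the 12 arrays (vertical axis) by siRNA group (horizontal axis) for 2 human mRNAs, 2 bacterial transcripts with a poly(A) tail and 2 hybridization controls; red circles are replicate 1, blue squares replicate 2 and light triangles replicate 3. Replicate 1 lies below every other array for ACTB (0.42 to 0.62 against 1.89 to 2.69), GAPDH, dap and thr, and among the others for cre.

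Across the genome the replicate 1 arrays differed from the others in many genes by small amounts. Of 19775 genes, each read by its brightest probe set, 2311 (11.7%) passed an adjusted p of 0.05 in the limma fit with siRNA group as a block. In replicate 1, 1210 of them (6.12%) were higher and 1101 (5.57%) lower. The median size of the difference over all genes was 0.07 (log2) and the 99th percentile was 0.35. Of the called genes, 34 were higher by at least 0.5 (0.172% of all genes) and 23 lower by at least 0.5 (0.116%), and 2 (0.0101%) in each direction reached 1. The replicate 1 array lay above both other arrays of its group in all 4 groups for 1884 genes (9.53%) and below both for 1711 (8.65%). Of the sum of squares within groups, 33.2% lay between replicate 1 and the mean of the others, on 1 of 8 degrees of freedom, and 8.19% between replicates 2 and 3. The root mean square difference between 2 arrays of a group was 0.16 to 0.21 with a replicate 1 array in the pair and 0.14 to 0.16 between replicates 2 and 3.

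A fit with replicates 2 and 3 as separate levels called 0 genes between them in limma, with 707 (3.58%) at an unadjusted p under 0.05. For replicate 1 that fit called 1909 genes, and in the main fit 5510 (27.9%) had an unadjusted p under 0.05. Replicate 3 against 2 compares fewer arrays, so its precision is lower. An F test that the replicate 1 difference is equal in the 4 groups called 0 genes in limma, with 1130 (5.71%) at an unadjusted p under 0.05. With 4 residual degrees of freedom in that test, small differences between groups would not be seen. Without the control group, whose siRNA number moves with the replicate number, 1315 genes were called, of which 1169 were among the 2311. With 1 replicate 1 array left out, the count was 1101 without the control array, 1058 without s18074, 1028 without s18075 and 1343 without s18076. Each of these fits has fewer arrays on the replicate 1 side.

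**Figure D2:**
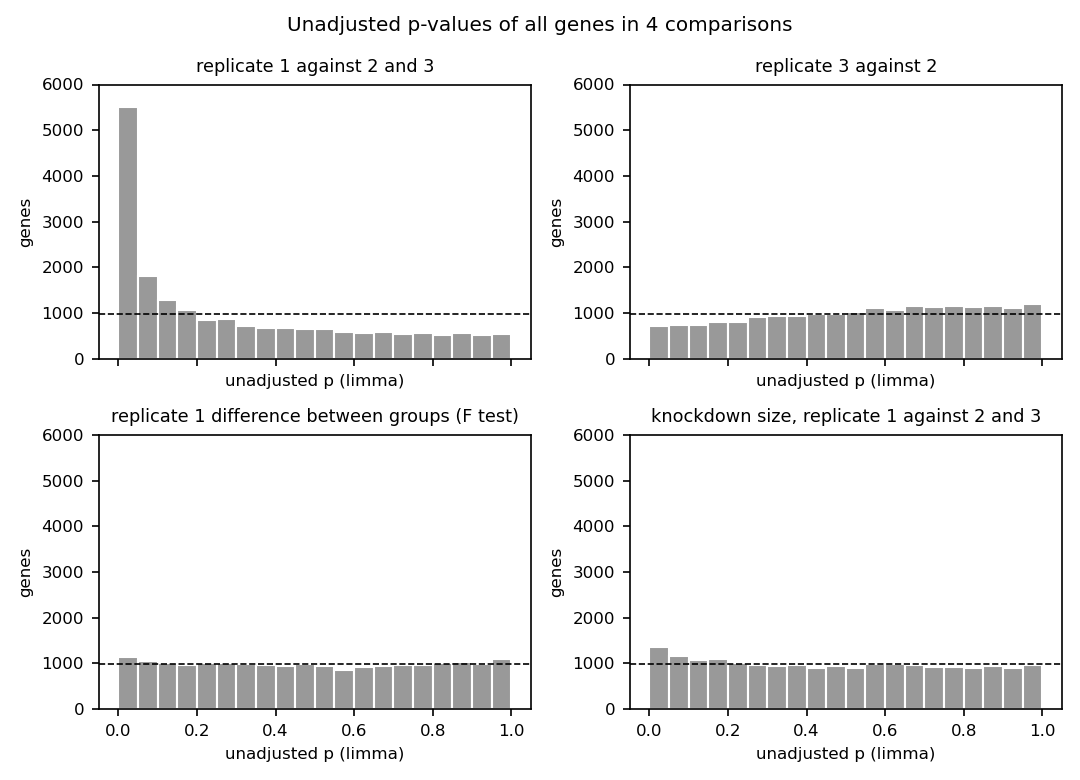
Histograms of the unadjusted limma p-value of all 19775 genes (horizontal axis, 20 bins of equal width; vertical axis, genes) in 4 comparisons; the dashed line is the count per bin if p-values were spread evenly. Only replicate 1 against replicates 2 and 3 piles up near 0, with 5510 genes under 0.05, against 707 for replicate 3 against replicate 2, which compares fewer arrays and comes from another fit.

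The knockdown of MED26 was seen in replicate 1 and in the other replicates. MED26 read 9.84 on the control array of replicate 1 and 8.79, 9.41 and 8.80 with s18074, s18075 and s18076. The mean of the 3 siRNAs minus control was −0.84 in replicate 1 and −0.95 in replicates 2 and 3, a difference of 0.11 ± 0.09 (SE; adjusted p = 0.876 in the limma fit over all genes). The same test over all genes called 0 in limma, with 1351 (6.83%) at an unadjusted p under 0.05. Over all groups, MED26 differed by 0.07 ± 0.04 (SE) between replicate 1 and the rest (adjusted p = 0.328), and none of its 3 probe sets passed. MYC, the transcription factor, read 10.81 on the control array and 9.68 to 9.94 on the siRNA arrays of replicate 1, and 9.54 to 10.53 on the others, with a difference of 0.23 ± 0.08 (SE) that missed the threshold (adjusted p = 0.0762). The gene-level probe sets of ACTB (0.07 ± 0.04 SE, adjusted p = 0.218) and GAPDH (0.03 ± 0.03 SE, adjusted p = 0.601) did not pass either. All 3 ordinary probe sets of ACTB differed by 0.06 to 0.08, next to the 1.76 of its 5′ control probe set.

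The genes with the highest excess in replicate 1 were BOLA2 and BSG. BOLA2, a protein of iron-sulfur cluster handling, read 7.84, 7.82, 7.60 and 7.82 in replicate 1 (control, s18074, s18075, s18076) and 6.26 to 6.92 on the other 8 arrays, a difference of 1.21 ± 0.08 (SE; 2.31-fold, adjusted p = 2.98e-05). BSG, basigin, a membrane glycoprotein that escorts lactate transporters to the cell surface, read 10.86, 11.26, 11.29 and 11.36 against 9.77 to 10.30, a difference of 1.07 ± 0.06 (SE; adjusted p = 2.98e-05). Every replicate 1 array lay above every other array for both genes. BOLA2 has near-identical copies in the genome, so its signal may include theirs.

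The next 10 genes rose by 0.62 to 0.79. EPHX1, an epoxide hydrolase of the endoplasmic reticulum, read 9.63 to 9.86 in replicate 1 and 8.60 to 9.09 elsewhere (0.79 ± 0.06 SE, adjusted p = 7.74e-05). KLHDC3, a substrate adaptor of a cullin ubiquitin ligase, and RNF126, another ubiquitin ligase, rose by 0.78 and 0.71. TMEM165, a Golgi membrane protein needed for glycosylation, rose by 0.78. EIF5A, the translation factor that carries hypusine, read 13.80, 13.80, 13.85 and 13.82 against 12.80 to 13.37 (0.63 ± 0.09 SE, adjusted p = 0.00187). MED18, a head subunit of Mediator, read 8.16, 8.24, 8.55 and 8.55 against 7.46 to 7.88 (0.71 ± 0.06 SE, adjusted p = 0.00011). The others were MSI1, an RNA-binding protein (0.69, and among the dimmest 40% of genes), TPM4, a tropomyosin of actin filaments (0.63), CTXN1 (0.63) and MRPL38, of the large mitochondrial ribosomal subunit (0.62). For each of these the 4 replicate 1 arrays lay above all 8 others.

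At the other end stood MALAT1, a long noncoding RNA of the nucleus. It read 8.13, 7.73, 8.53 and 8.39 in replicate 1 and 8.91 to 9.70 elsewhere, a difference of −1.17 ± 0.13 (SE; adjusted p = 0.000528). SECISBP2, which reads the selenocysteine insertion element of selenoprotein mRNAs, read 9.41, 8.93, 9.44 and 9.52 against 10.08 to 10.69 (−1.08 ± 0.07 SE, adjusted p = 2.98e-05). RSF1, a subunit of a chromatin remodelling complex, fell by 0.91 and read 8.10 to 8.60 against a median of 9.30. Neither gene had a replicate 1 array within the range of the others.

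The remaining genes of this end fell by 0.63 to 0.91. ANKRD17, an ankyrin repeat protein, differed by −0.82, and NKTR, a cyclophilin with an arginine-serine rich domain, by −0.80. ESF1, a nucleolar protein of ribosomal RNA processing, read 10.02 to 10.41 in replicate 1 and 10.62 to 11.03 elsewhere (−0.69 ± 0.06 SE, adjusted p = 0.000189). SOD2, the manganese superoxide dismutase of mitochondria, read 9.14, 9.26, 8.97 and 9.09 against 9.65 to 9.97 (−0.67 ± 0.06 SE, adjusted p = 0.000228). TGS1, which adds the hypermethylated cap to small nuclear RNAs, read 9.83 to 9.95 against 10.36 to 10.63 (−0.63 ± 0.04 SE, adjusted p = 6.57e-05). The dim ANKRD36B and EIF3C, a subunit of translation initiation factor eIF3, differed by −0.91 and −0.71, and both have near-identical relatives. TSIX, the antisense transcript of the X inactivation centre, differed by −0.69. CYP1B1, a cytochrome P450, differed by −0.64. With groups pooled, it was the exception among the 24 leading genes: its replicate 1 arrays (6.75 to 7.66) overlapped the others (7.30 to 8.49). Its level differed between siRNA groups, and within each group its replicate 1 array lay below both others, as the selection of these genes required. All 24, picked from these same arrays for large differences, kept their call and direction with any 1 of the 12 arrays left out.

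**Figure D3:**
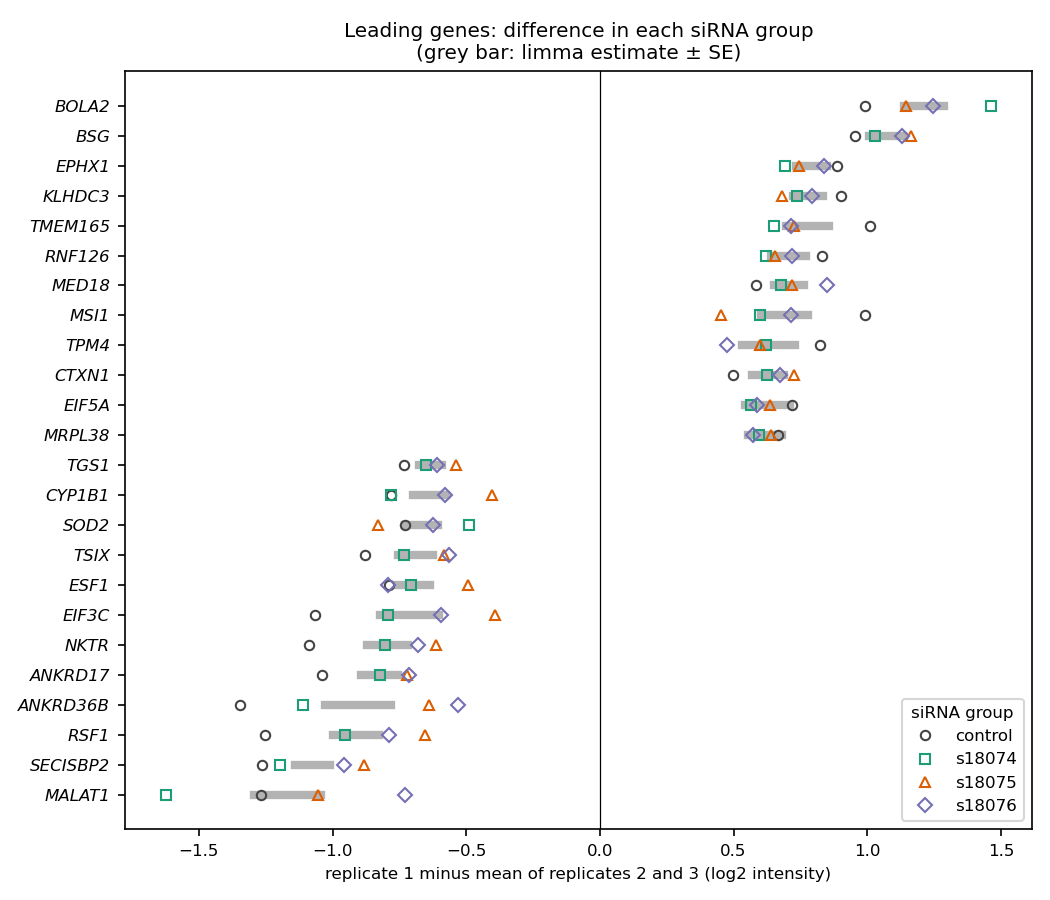
Replicate 1 minus the mean of replicates 2 and 3 (log2 intensity, horizontal axis) in each of the 4 siRNA groups for the 12 leading genes in each direction; the grey bar is the limma estimate ± SE. The genes were picked with the replicate 1 array beyond both others in all 4 groups, so a shared side of 0 follows from the selection. The estimates run from BOLA2 at 1.21 to MALAT1 at −1.17.

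Probe sets of one gene often did not move together. Of the 24 leading genes, 16 have a further probe set, and in 11 at least 1 further probe set was called the same way when every probe set was tested on its own (6329 of 54613 called, 11.6%). EIF5A rose in 3 of 3 probe sets, by 0.33 to 0.63. KLHDC3 rose in both of its probe sets (0.65 and 0.78), and MED18 in both of its own (0.71 and 1.68). TMEM165 rose in 3 of 6 and TPM4 in 2 of 5, with none of the others called. MALAT1 fell in 5 of 12 probe sets and was not called in 7, over a range from −1.17 to 0.14. BOLA2 had 1 further probe set, at −0.19, and SECISBP2 had 1, at −0.13, neither called in the test of every probe set. In a limma fit of second-brightest probe sets alone, that of BOLA2 was called lower (adjusted p = 0.0409).

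In other genes 1 probe set rose where another fell. ANKRD17 differed by −0.82 in its brightest probe set and by 0.31 in the other, and both passed. NKTR fell in 2 of 8 probe sets (−0.80 and −0.61), rose in 1 (0.31) and was not called in 5. KIF5B, the heavy chain of kinesin, was singled out after its values were seen: its 3 probe sets differed by −0.55, −0.05 and 0.34, of which the first and the last passed. ZMAT3, a p53 target that encodes a zinc finger protein, differed by −0.48 in its brightest probe set and by 0.88 in its dimmest, with the other 3 not called. Over all genes, 830 had 2 or more probe sets called, and in 281 of these (33.9%) the calls went in opposite directions. Among 1438 called genes with several probe sets, the second-brightest was called the same way in 278 (19.3%), the opposite way in 106 (7.37%) and not called in 1054 (73.3%). Among the genes that the naming rule picked and that have several probe sets, the second-brightest lay on the other side of 0 in 25. In 41 more it kept the sign but was not called, and in 27 neither sign nor call changed. The 25 include XBP1, TGFB1, FARSA, FARSB, EBP, WIPI1, TFE3, NDUFV1, NDUFA10, KLF6, ASAP1, RIGI, SAMD9 and TGS1. In BOLA2, ANKRD17, ASAP1, CCNC, FARSB, H3C6 and NDUFA10 the second-brightest probe set was called in that opposite direction. A gene's difference here therefore holds for the probe set named, and where on the transcript each probe set lies was not used here.

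**Figure D4:**
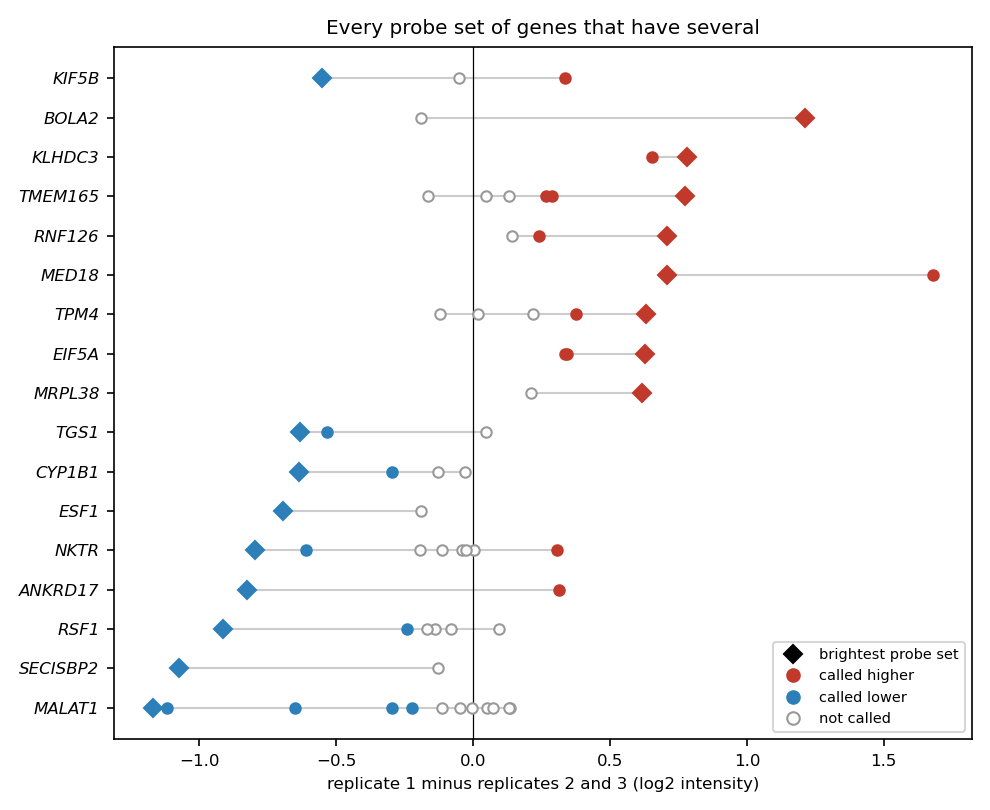
Replicate 1 minus replicates 2 and 3 (log2 intensity, horizontal axis) for every probe set of the leading genes that have several, and of KIF5B; diamonds mark the brightest probe set, red and blue fill a call of higher or lower, and open circles no call. The probe sets of EIF5A and KLHDC3 lie together, while those of NKTR, ANKRD17 and KIF5B hold calls on both sides of 0.

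The 32 gene lists, which cover pathways, complexes and cell types, held both higher and lower members in 20 cases, and their medians ran from −0.06 to 0.11. Members are read here against 6.12% higher and 5.57% lower over all genes. Many lists have a median level in the brightest of 4 classes of genes by level (9.74 and above). In that class 11.3% were higher and 6.94% lower. Most counts fall when a replicate 1 array is left out. Over all genes, higher calls then fell from 1210 to between 553 (control) and 720 (s18076). Lower calls fell from 1101 to between 450 (s18075) and 623 (s18076). Brackets give the lowest counts of higher and of lower members over the 12 fits that each leave out 1 array. Named with each lowest count are the groups whose replicate 1 array gives it when left out. In some lists leaving out an array of replicate 2 or 3 gives the same lowest count. The brackets do not cover the choice of probe set. With the mean of a gene's probe sets, higher calls over all genes went from 1210 to 1485. They went from 2 to 7 for immediate-early genes and from 4 to 10 for ATF4 genes. For G1/S genes they went from 7 to 13, while cholesterol synthesis genes kept 6 and lysosome genes 11.

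Cholesterol synthesis and lysosome genes had the highest shares of higher members among the 32 lists. Of 21 measured cholesterol synthesis genes, 6 rose (28.6%) and 1 fell, with a median of 0.11 (lowest 2, control, s18074 or s18076, and 0, control, s18074 or s18075). MVK, mevalonate kinase, rose by 0.20 ± 0.04 (SE) and read 9.25 to 9.36 in replicate 1 against 9.03 to 9.18. TM7SF2 and EBP, later enzymes of the pathway, rose by 0.29 and 0.24, and HSD17B7 fell by 0.14. Of 44 lysosome and autophagy genes, 11 rose (25%) and 2 fell, with a median of 0.06 (lowest 5, control or s18075, and 1, control, s18074 or s18075). ATP6V0D1, a subunit of the proton pump that acidifies the lysosome, read 12.11, 12.24, 12.19 and 12.32 against 11.33 to 11.86, a rise of 0.48 ± 0.07 (SE; adjusted p = 0.00212). ATP6V1B2 of the same pump rose by 0.30 and the sialidase NEU1 by 0.29. WIPI1, an autophagosome protein, fell by 0.28, and TFE3, a transcription factor of lysosomal genes, by 0.16. Of 17 fatty acid synthesis genes, 3 rose and 1 fell (lowest 1, control, and 0, s18074, s18075 or s18076), and the synthase FASN rose by 0.23 ± 0.03 (SE).

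Lists of protein folding and amino acid supply also held more higher than lower calls, as did the brightest class of genes by level (11.3% and 6.94%). Of 27 endoplasmic reticulum chaperone and XBP1 target genes, 5 rose (18.5%) and 1 fell (lowest 2, control, s18074 or s18075, and 0, control, s18075 or s18076). XBP1, the transcription factor of the unfolded protein response, rose by 0.34 ± 0.07 (SE). With groups pooled, its replicate 1 arrays (9.97 to 10.90) overlapped the others (9.58 to 10.40). Within each siRNA group its replicate 1 array lay above both others, at 10.90 against 10.16 and 10.40 in the control group and 10.01 against 9.80 and 9.89 with s18076. PDIA6, a disulfide isomerase, rose by 0.23 without overlap, and HSP90B1, the chaperone GRP94, fell by 0.30. Of 18 aminoacyl-tRNA synthetase genes, 4 rose and 0 fell (lowest count of higher members 2, any of the 4 groups), among them both subunits of the phenylalanine enzyme: FARSA by 0.49 ± 0.07 (SE) and FARSB by 0.20 ± 0.03 (SE). Of 35 ATF4 and amino acid response genes, 4 rose (11.4%) and 1 fell (lowest 1, control or s18074, and 0, s18074, s18075 or s18076), with SLC3A2, a chain of amino acid transporters, at 0.23. Heat-shock and J-domain genes rose in 3 of 23 (13%) and fell in 1 (lowest 0, control, s18074 or s18075, and 0, any of the 4). The shares of higher calls in these last 2 lists were near that of the brightest class.

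Glycolysis and cell cycle genes gave calls in 1 direction or in both. Of 36 hypoxia and glycolysis genes, 7 rose (19.4%) and 0 fell (lowest count of higher members 2, control or s18075). PKM, pyruvate kinase, read 13.09, 13.24, 13.19 and 13.23 in replicate 1 and 12.63 to 12.95 elsewhere, a rise of 0.36 ± 0.04 (SE; adjusted p = 0.000278). GPI, glucose-6-phosphate isomerase, rose by 0.21 and P4HA2, a collagen prolyl hydroxylase, by 0.17. Of 50 G1/S and DNA replication genes, 7 rose (14%) and 0 fell (lowest count of higher members 2, control or s18075), with TK1, thymidine kinase, at 0.39, and CDC6, a licensing factor, and SLBP, the histone stem-loop binding protein, at 0.23 each. Of 50 G2, mitosis and cytokinesis genes, 5 rose and 3 fell (lowest 2, control or s18075, and 1, s18074 or s18075). PLK1, a mitotic kinase, read 9.94 to 10.29 in replicate 1 against 9.60 to 9.86 (0.42 ± 0.05 SE, adjusted p = 0.000677), TPX2, a spindle factor, rose by 0.28, and KIF14, a kinesin, fell by 0.21. Of 39 replication-dependent histone genes, 0 rose and 5 fell (12.8%; lowest count of lower members 1, control, s18074 or s18075), and 24 of the 39 were among the dimmest 40% of genes. H2BC4 was the furthest at −0.53 ± 0.10 (SE). H3C6 differed by −0.19 in its brightest probe set and by 0.26 in its second, and both were called.

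Most lists of machinery genes held calls in both directions, as 20 of the 32 lists did. The shares higher and lower were 9.33% and 12% for mitochondrial ribosomal protein genes and 7.25% and 10.1% for oxidative phosphorylation genes. Nucleolar genes had 11.5% each way, proteasome genes 11.1% and 7.41%, and splicing genes 7.5% and 5%, against 6.12% and 5.57% over all genes. The median levels of these lists (10.9 to 12.9) lay in the brightest of 4 classes of genes by level. In that class 11.3% were higher and 6.94% lower, so the proteasome shares were near it and the splicing shares below it. Of 75 mitochondrial ribosomal protein genes, 7 rose and 9 fell (lowest 4, any of the 4 groups, and 1, s18075 or s18076), with MRPL37 at 0.35 and MRPL44 at 0.33 beside MRPL38, and with MRPL19 at −0.20 and MRPL17 at −0.19. Of 69 oxidative phosphorylation genes, 5 rose and 7 fell (lowest 3, s18074 or s18075, and 1, s18075). UQCRC1, a core subunit of complex III, rose by 0.25 ± 0.03 (SE), and UQCRB, a small subunit of the same complex, fell by 0.22 ± 0.04 (SE). NDUFV1 and NDUFA10 of complex I rose by 0.21 and 0.19, and COX7B of complex IV and NDUFB1 of complex I fell by 0.16 and 0.13. Of 52 nucleolar ribosome biogenesis genes, 6 rose and 6 fell (lowest 3 and 1, any of the 4 groups), led by NOB1 at 0.29, the nuclease that matures 18S ribosomal RNA, and by UTP20 at −0.22, a large processome component. Of 27 proteasome genes, 3 rose and 2 fell (lowest 2 and 0, any of the 4 groups). PSMC3, an ATPase of the 19S cap, rose by 0.35 ± 0.04 (SE), and PSMA4 and PSMB1 of the 20S core fell by 0.14 and 0.13. Of 40 SR and hnRNP splicing genes, 3 rose and 2 fell (lowest 1, control, s18075 or s18076, and 0, s18074, s18075 or s18076), with SRSF6 at 0.22. Of 57 cytosolic ribosomal protein genes, 0 rose and 2 fell, RPS25 by 0.14 and RPL38 by 0.11, and neither kept its call with every array left out in turn (lowest 0, s18074, s18075 or s18076). In 18 of the 57 the replicate 1 array lay below both others in all 4 groups, and in 3 above both, against 8.65% below and 9.53% above over all genes. None of the 7 snoRNA host genes measured was called.

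Within Mediator, the complex of the targeted subunit, 3 of 30 measured genes rose and 5 fell (lowest 2, control, s18074 or s18075, and 2, control), with a median of 0.00. Beside MED18, the middle subunit MED21 rose by 0.33 ± 0.06 (SE), and CCNC, the cyclin of the kinase module, by 0.16. MED1, the subunit that contacts nuclear receptors, differed by −0.28 ± 0.05 (SE), reading 9.84 to 10.15 against 10.23 to 10.43. MED13L and MED13 of the kinase module fell by 0.24 and 0.15, MED31 by 0.20 and MED30 by 0.14; MED13 and MED30 are named after their values were seen, to complete the 5. CCNC had a very dim second probe set at −0.33, called in the opposite direction.

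Lists of signalling, stress and the cytoskeleton held between 2 and 8 calls each. Of 26 SRF and actin cytoskeleton genes, 5 rose and 3 fell (lowest 3, control or s18076, and 0, s18075): TLN1, talin, rose by 0.39 ± 0.04 (SE) and ZYX, zyxin, by 0.30, and TMSB4X, a thymosin that binds actin monomers, fell by 0.21. Of 27 p53 target genes, 4 rose and 3 fell (lowest 2, control or s18075, and 2, control, s18074 or s18075), with BAX, a mediator of apoptosis, at 0.25 ± 0.03 (SE), and with POLK, a DNA polymerase, at −0.31 and ZMAT3 as above. With the mean of a gene's probe sets, 5 of the p53 targets rose and 0 fell, and ZMAT3 was called higher (0.11). Of 31 TGF-beta and BMP response genes, 4 rose and 3 fell (lowest 1, control or s18076, and 0, s18074 or s18075), with the ligands TGFB1 at 0.39 and BMP4 at 0.30 and the ligand BMP2 at −0.18. Of 26 NRF2 target and glutathione genes, 2 rose and 1 fell (lowest 1, control, s18074 or s18076, and 0, control, s18074 or s18075), and PGD, of the pentose phosphate pathway, rose by 0.39. Of 38 interferon-stimulated genes, 0 rose and 3 fell, SAMD9, MX2 and RIGI, by 0.25 to 0.29, with 19 of the 38 among the dimmest 40% of genes and a lowest count of 0 (s18074 or s18076). Of 36 immediate-early genes, 2 rose and 1 fell (lowest 0, control, s18074 or s18075, and 1), with JUND at 0.21 and KLF6 at −0.20. Of 22 YAP, TAZ and TEAD target genes, 0 rose and 2 fell, F3, the tissue factor, by 0.26 and ASAP1 by 0.17 (lowest 1, s18074, s18075 or s18076). ASAP1 was called higher instead with its second-brightest probe set (0.20) and with the mean of its probe sets (0.20). Of 15 metallothionein and metal response genes 1 rose and 1 fell (lowest 0, any of the 4 groups, and 0, control, s18074 or s18075), and of 13 microRNA machinery genes 1 rose, TARBP2, by 0.25, and 1 fell, AGO2, by 0.15 (lowest 1 and 0, any of the 4 groups).

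Markers of the line and of other cell types gave 4 calls. Of 14 measured genes that mark HEK293 cells, 2 were among the dimmest 40% of genes, against 9 of 14 fibroblast markers, 9 of 11 blood cell markers and 7 of 12 markers of HeLa and carcinoma lines. TUBB3, a neuronal tubulin, rose by 0.31 ± 0.04 (SE) and VIM, vimentin, by 0.23 ± 0.05 (SE), and the other 12 HEK293 genes were not called. COL6A2 of the fibroblast list rose by 0.34 ± 0.06 (SE), and MS4A1 of the blood list, which was dim, fell by 0.30. The mean level of the fibroblast list was 6.29 to 6.39 in replicate 1 and 6.20 to 6.39 elsewhere, and that of the blood list 5.47 to 5.60 and 5.44 to 5.59. In RNA from a whole dish, fewer cells of a type and less RNA per cell cannot be told apart. Of the 136 called genes that the naming rule picked, 69 kept their call with any 1 array left out. TM7SF2, EBP, HSD17B7, TFE3, HSP90B1, SLC3A2, GPI, P4HA2, TK1, H2BC4, H3C6, MRPL19, COX7B, NDUFB1, PSMA4, PSMB1, CCNC, MED31, TMSB4X, BMP4, BMP2, SAMD9, MX2, RIGI, JUND, ASAP1, AGO2, VIM and MS4A1 did not.

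**Figure D5:**
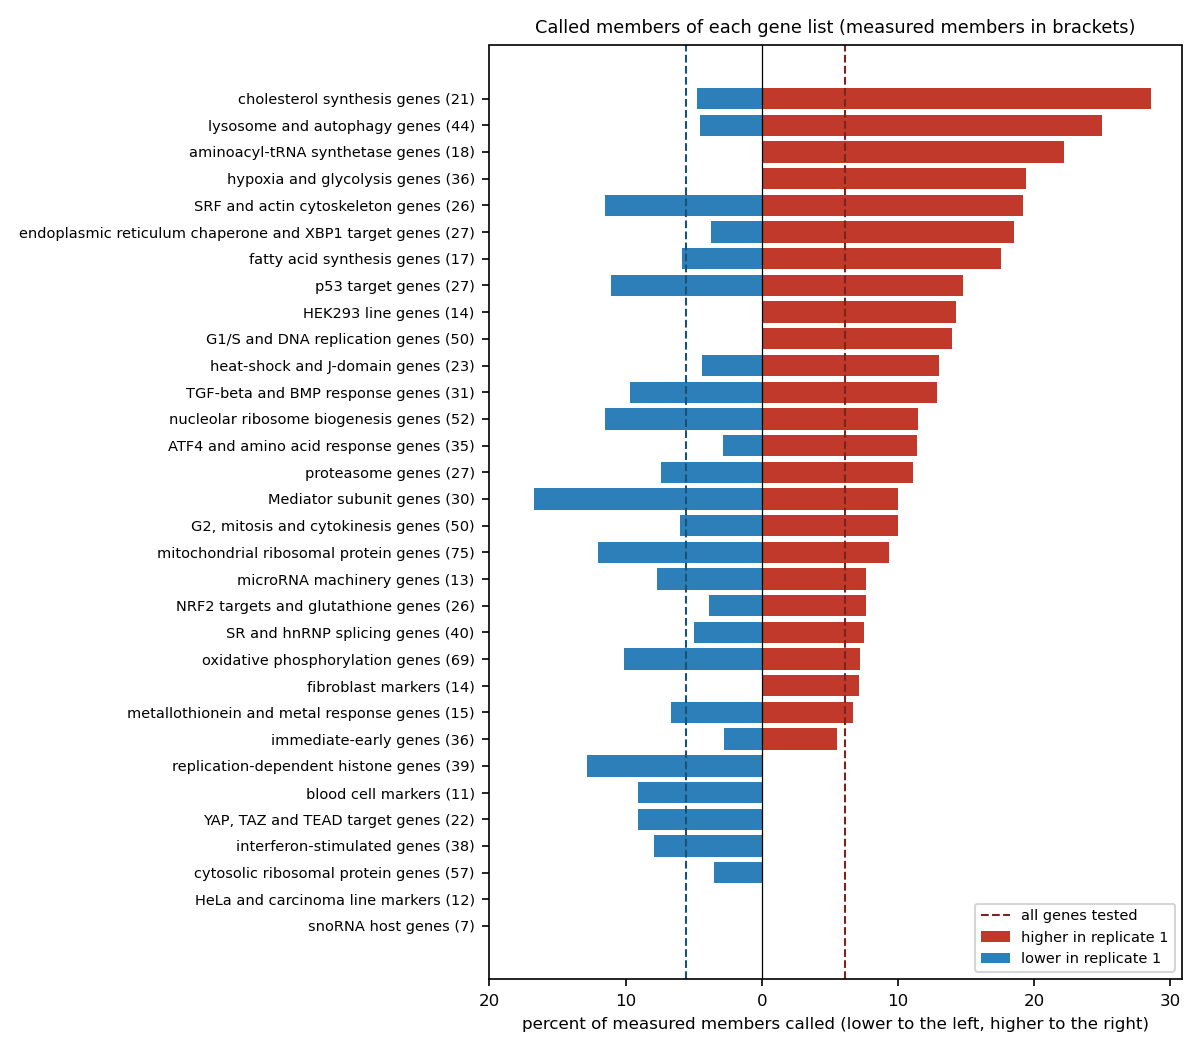
Share of the measured members of each gene list called higher (right, red) or lower (left, blue) in replicate 1, in percent, with the number of measured members in brackets; the dashed lines mark 6.12% higher and 5.57% lower over all genes. Cholesterol synthesis (28.6% higher) and lysosome and autophagy genes (25% higher) reach furthest to the right, and many lists hold calls on both sides. In the brightest of 4 classes of genes by level, 11.3% were higher and 6.94% lower.

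The shares of higher and lower calls differed by gene span and by level. By the span of the gene in the RefSeq table (GRCh38.p14), cut into 4 classes of equal size, 6.91% of the shortest genes were higher and 4.03% lower, and of the longest 3.93% were higher and 7.76% lower. The classes between had 7.30% and 6.39% higher and 4.34% and 6.14% lower. By mean level, 1.60% of the dimmest class were higher and 2.51% lower, against 11.3% and 6.94% in the brightest. The shares are descriptions of these genes, with no test, and the parts of gene span and of level in the list results were not tested. Probe sets that name no gene or several were called in 1102 of 13522 cases (8.15%).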

How the data were processed

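RNA of 12 HEK293T samples was measured on Affymetrix expression arrays. The deposited values are probe set intensity on a linear scale, made by the authors with RMA (background correction, quantile normalization and probe summary) in affy (version 1.24.2), as given in the submitters' processing notes. The genome build is not given in the sources used here. Here log2 was taken without a pseudocount, although log2 values had been assumed. Values ran from 4.36 to 33219, and array medians from 72.3 to 73.8. The number of arrays limits the precision.

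Of 54675 probe sets, 62 are controls, 41091 name 1 gene, 1801 several and 11721 none in the platform annotation. The Entrez ID of 41037 was found in the RefSeq table, and 0 symbols changed. The brightest of a gene's probe sets over the 12 arrays stood for each of 19775 genes, 10523 of which had several. limma 3.58.1 in R 4.3.3 fitted siRNA group and replicate 1 (7 residual degrees of freedom), with Benjamini-Hochberg adjustment over all genes, and the script was tested on simulated data. The smallest difference between 2 arrays of a group was a root mean square of 0.14, so no array was counted as a copy. Ratios were compared by an exact permutation test over 81 arrangements.

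Named genes are MED26, MYC, ACTB and GAPDH, the 12 largest called differences in each direction with the replicate 1 array beyond both others in all 4 groups, and up to 3 called members per direction of each of 32 lists; names of the LOC, LINC and orf kind were skipped. The members and lists were chosen with earlier results of these data known, among them that replicate 1 arrays stood apart. Alternatives covered scaling, dim genes, probe sets, variance model, array weights, blocks, threshold and left-out groups and arrays. Probe sequences and positions were not used here.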

Additional observations from a re-analysis of the deposited data

Results flagged for a closer look

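In 7 of 142 named genes and ratios, the replicate 1 difference in 1 siRNA group stood apart from those in the other 3 by Dixon's criterion, which chance alone meets in about 5% of such items, so the number is close to the chance share. MED1 differed by −0.44 in the control group and by −0.23 to −0.20 with the MED26 siRNAs. SLBP differed by 0.33 in the control group and by 0.18 to 0.20 in the others, and TPX2 by 0.40 in the control group and by 0.23 to 0.26 in the others. In the s18075 group AGO2 differed by −0.064 (others −0.19 to −0.17) and SLC39A10, a zinc transporter, by 0.27 (others 0.16 to 0.17). In the s18076 group NDUFV1 differed by 0.30 (others 0.17 to 0.19) and TFE3 by −0.050 (others −0.20 to −0.18). The limma F test between groups called none of these genes, and in the control group the siRNA number cannot be told apart from the replicate number.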

How the results depend on the processing

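The count of 2311 called genes (1210 higher, 1101 lower) stayed within 1.5 times under median centring, quantile normalization, the mean of a gene's probe sets, array weights, leaving out the dimmest 40% and the second-brightest probe set, which was added after seeing the data. The last 2 tested fewer genes: 3151 of 11865 were called without the dimmest 40%, and 2023 of 10523 with the second-brightest probe set. Of 1438 calls tested with the second-brightest probe set, 278 remained and 106 were called with the opposite sign. Of the 2311 calls, 2141 remained under median centring and 2133 under quantile normalization, none with a turned sign, but with the mean of a gene's probe sets 1417 remained and 22 were called with the opposite sign, and the median over all genes stayed within 0.01 of 0. With replicates 2 and 3 as separate levels (the replicate block), 1909 genes were called, 1010 higher and 899 lower, and 1864 of the 2311 calls remained. The counts moved further elsewhere. Every probe set on its own gave 6329 calls, 3337 higher and 2992 lower, over more features. A trended robust variance gave 1678 lower, and an adjusted p under 0.01 gave 618, 365 and 253 (called, higher and lower). Without the siRNA group as a block, which leaves the group differences in the residual, 235, 157 and 78 remained. With a whole group left out the counts were 1315, 689 and 626 without the control group, 751, 432 and 319 without s18074, 742, 427 and 315 without s18075, and 928, 506 and 422 without s18076. With 1 array left out the counts ran from 1028 to 2455 called, 553 to 1249 higher and 450 to 1206 lower, and the 4 replicate 1 arrays moved them by over 1.5 times. The difference in 3′ to 5′ ratio of ACTB and GAPDH kept its direction with the middle probe set in place of the 5′ one (−0.57 for ACTB and −0.13 for GAPDH) and without any 1 group, where the smallest possible exact permutation p is 0.037. The 0 calls between replicates 3 and 2, between groups and in knockdown size stayed at 0 in each alternative run; the last 2 could not be fitted with a replicate 1 array left out.

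The choice of probe set turned the sign of named genes, which is the difference between probe sets given in the report. With the mean of all probe sets the differences were ASAP1 0.20, CCNC −0.086, FARSB −0.11, H3C6 0.033, KLF6 0.10, RPL38 0.058, TFE3 0.085 and ZMAT3 0.11. With the second-brightest probe set they were ALDH1L2 0.023, ANKRD17 0.31, ASAP1 0.20, BOLA2 −0.19, CCNC −0.33, COL5A1 −0.039, EBP −0.13, FARSA −0.084, FARSB −0.37, H3C6 0.26, KLF6 0.077, MDM2 0.090, NDUFA10 −0.15, NDUFV1 −0.022, POLR1C 0.00868, RIGI 0.020, SAMD9 0.041, SESN2 −0.035, SMAD6 0.057, TFE3 0.091, TGFB1 −0.064, TGS1 0.047, TPM1 0.12, WIPI1 0.023 and XBP1 −0.062. Each of these genes is therefore read for its brightest probe set alone, and signal over background was not assessed beyond the dimmest 40%.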
